A study of Macaca mulatta with 28 samples.

Results

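The 9 genes described here, PSD, PSD2, PSD3, ARFGEF1, ARFGEF2, GBF1, CYTH1, CYTH2 and CYTH3, encode guanine nucleotide exchange factors for ARF GTPases. They were measured by RNA sequencing of a block of brain tissue that held the central nucleus of the amygdala (CeA), in 28 male rhesus macaques with free choice of ethanol. The 9 genes are 9 of 15521 in the gene table, and their 203 exons are 203 of 156345 in the exon table. They were put together as a family because PSD2 was higher in very heavy drinkers and ARFGEF1 in heavy drinkers than in low drinkers. The values of these 2 contrasts are therefore given as a description, with no test.

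ARF proteins are small GTPases that recruit coats and lipid enzymes to membranes when they carry GTP. An exchange factor switches an ARF on: its Sec7 domain opens the nucleotide site so that GDP leaves and GTP binds. The family members differ mainly in where they work. PSD, PSD2 and PSD3 belong to the EFA6 group, which acts on ARF6 at the plasma membrane and is known from neurons for effects on dendrites and spines. The cytohesins CYTH1, CYTH2 and CYTH3 are drawn to the plasma membrane by phosphoinositides. ARFGEF1 and ARFGEF2 work at the trans-Golgi network and endosomes, and GBF1 works at the early Golgi, where it controls the COPI coat.

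During an induction of about 90 days the animals learned to take ethanol at 4% (w/v), and for more than 12 months after it they could choose it for 22 hours daily. No animal without ethanol was among the 28. By the labelled drinking category there were 10 low (LD), 5 binge (BD), 7 heavy (HD) and 6 very heavy (VHD) drinkers. The BD criteria were a dose of 2 g/kg or more on no fewer than 55% of days, with a blood ethanol of 80 mg/dl reached yearly. HD required 3 g/kg or more on no fewer than 20% of days. VHD required a mean daily intake above 3 g/kg, with more than 4 g/kg on 10% or more of the open access days. LD animals fulfilled no criterion of the other categories. Cohort 4 held 4 LD, 3 BD and 1 HD animals, and cohort 5 held 3 HD and 4 VHD animals. Cohort 7a held 3 LD, 1 BD, 2 HD and 2 VHD animals, and cohort 7b held 3 LD, 1 BD and 1 HD animal. The mean ages at induction were 8.24, 5.63, 4.18 and 5.69 years in cohorts 4, 5, 7a and 7b. After open access the ages were 9.98, 7.15, 5.7 and 7.18 years in the same order. Only cohort 7a held both VHD and LD animals, and cohort 5 had neither LD nor BD animals.

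Each animal gave 1 library, with 1910514 to 25928489 reads over gene exons (median 16444833). The 3 shallowest libraries, BD replicate 1, LD replicate 1 and HD replicate 1, were all from cohort 4. Values are reads scaled by 1 factor per library, called normalized reads, and 3 reads were worth 1.82 to 24.1 of them. Of the 8 CeA identity markers listed, 7 were in the table and none of them was at 0 in any library. PRKCD ranged from 174 to 917 normalized reads, CRH from 16.03 to 109 and ISL1 from 1.35 to 225. The lowest ISL1 value was below the worth of 3 reads in any library, and the lowest CRH value lay within the range of that worth. The CeA identity score is the mean log2 value of these markers around the mean of all libraries. It ran from -1.18 in BD replicate 2 to 0.67 in HD replicate 7. The block is bulk tissue, so fewer cells of a type and less RNA per cell cannot be told apart.

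All 9 genes were expressed in every library, and PSD3 was the most abundant per length. On the scale of normalized reads per kb of exon, the mean level over 28 libraries was 1302 ± 153 (SD, n = 28) for PSD3, 912 ± 215 for PSD and 545 ± 73.3 for PSD2. GBF1 followed with 456 ± 59.7, ARFGEF1 with 417 ± 40.2 and ARFGEF2 with 412 ± 29.1. The cytohesins were lowest, with 289 ± 27.1 for CYTH1, 154 ± 14.3 for CYTH2 and 153 ± 22.0 for CYTH3. Of the neighbours in this order, PSD3 was above PSD, ARFGEF2 above CYTH1 and CYTH1 above CYTH2 in 28 of 28 libraries. PSD was above PSD2 in 24, PSD2 above GBF1 in 25 and GBF1 above ARFGEF1 in 21 libraries. ARFGEF1 and ARFGEF2 were not separated, with ARFGEF1 higher in 15 libraries, a mean difference of 5.05 and an SD of that difference of 25.6. CYTH2 and CYTH3 were not separated either, with a mean difference of 0.47 against an SD of 27.1.

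**Figure D1:**
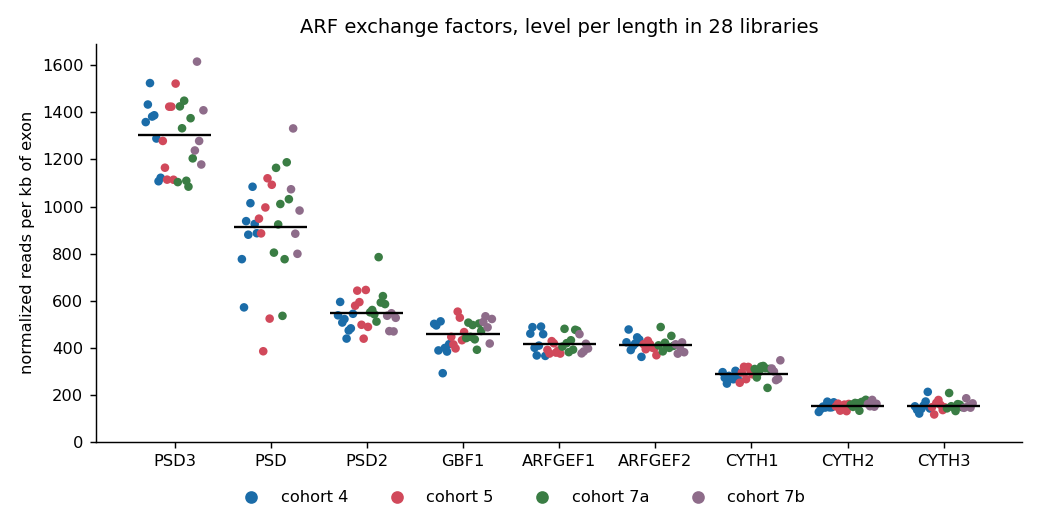
Level of each ARF exchange factor in normalized reads per kb of exon (vertical axis) in the 28 libraries, 1 point per library coloured by cohort, with a line at the mean. PSD3 lies highest (mean 1302), PSD spreads most (384.6 to 1332), and CYTH2 and CYTH3 lie together at the bottom (154 and 153).

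The exon models of related members matched in the length of part of their exons. The table gives no strand, so the end with the longest terminal exon was taken as the 3′ end and exons were numbered from the other end. Read this way, PSD, PSD2 and PSD3 shared 10 exon lengths in the same order (1100 bases in all), the cytohesins shared 9 (945 bases), and ARFGEF1 and ARFGEF2 shared 26 (3616 bases). Between GBF1 and ARFGEF1, 3 lengths matched in order. The genome build is not given in the sources used here, and positions are those of the exon table. PSD lay on chromosome 10 from 97957237 to 97974635 with 19 exons, and GBF1 on the same chromosome from 97799163 to 97937564 with 40 exons, 19672 bases away. PSD2 lay on chromosome 5 from 137338598 to 137386751 with 15 exons, and PSD3 on chromosome 8 from 18202929 to 18477230 with 13. ARFGEF1 lay on chromosome 8 from 65181196 to 65329635 and ARFGEF2 on chromosome 15 from 15406319 to 15520026, each with 39 exons. CYTH1 lay on chromosome 17 from 72210657 to 72316759 with 13 exons, CYTH2 on chromosome 19 from 43359485 to 43372848 with 12, and CYTH3 on chromosome 7 from 40339180 to 40454080 with 13. No other gene's exons reached into the span of a member, although USP42 lay only 214 bases from CYTH3.

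Counting only the matched exons kept the order of the EFA6 group and changed that of the cytohesins. On the scale of normalized reads per 100 bases, PSD3 had 240 ± 31.5 (SD, n = 28), PSD 177 ± 43.0 and PSD2 82.6 ± 11.1. PSD3 was above both others in 28 of 28 libraries, and PSD was above PSD2 in 25. In the 9 matched cytohesin exons CYTH2 had 56.1 ± 5.72, CYTH1 49.2 ± 4.66 and CYTH3 26.7 ± 3.83. CYTH2 was thus above CYTH1 in 23 of 28 libraries here, against 0 of 28 over whole exon models. The last exon of CYTH2, listed at 3259 bases, carried 3.19 normalized reads per 100 bases, 7.30% of the level of its other exons. The last exon of CYTH3, listed at the same 3259 bases, was at 50.7% of its other exons and that of CYTH1 at 40.7%. ARFGEF2 had 52.3 ± 3.93 and ARFGEF1 47.3 ± 4.78 over their 26 matched exons, and ARFGEF2 was above ARFGEF1 in 27 of 28 libraries.

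Coverage differed between the exons of each member. Per 100 bases, the most and least covered exons were exon 18 (334 normalized reads) and exon 2 (0.74) in PSD, exon 9 (212) and exon 15 (38.7) in PSD2, and exon 10 (322) and exon 1 (7.04) in PSD3. In the Golgi factors they were exon 2 (104) and exon 1 (10.2) in ARFGEF1, exon 24 (97.1) and exon 1 (10.1) in ARFGEF2, and exon 27 (91.8) and exon 40 (19.7) in GBF1. In the cytohesins they were exon 11 (84.5) and exon 1 (0.38) in CYTH1, exon 3 (71.4) and exon 12 (3.19) in CYTH2, and exon 11 (35.0) and exon 1 (6.86) in CYTH3. The lowest coverage was thus in a terminal exon in 8 of the 9 genes, PSD being the exception.

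Within the EFA6 group, the coverage of PSD stepped up along the gene and that of PSD2 and PSD3 did not. All 3 genes carry an exon of 44 bases, with 5 matched exons on either side of it (538 bases towards the 5′ end, and 709 bases towards the 3′ end in PSD and PSD2 and 712 in PSD3). In PSD the 5 exons before it had 56.3 ± 16.4 normalized reads per 100 bases and the 5 after it 268 ± 65.7 (SD, n = 28). The ratio of after to before was 4.92 ± 1.24 in PSD, with a range over libraries of 2.71 to 8.37. It was 1.08 ± 0.11 in PSD2 (0.89 to 1.38) and 0.997 ± 0.25 in PSD3 (0.56 to 1.53). The PSD ratio was above that of PSD2 and above that of PSD3 in 28 of 28 libraries, by 2.63 to 7.55 times and 2.84 to 10.9 times. By category the PSD ratio was 5.16 ± 1.39 in the 10 LD animals (SD), 5.12 ± 0.96 in the 5 BD, 5.19 ± 1.29 in the 7 HD and 4.02 ± 0.89 in the 6 VHD animals, and these ranges overlapped. As background, the exons for the Sec7 domain lie upstream in genes of this group and those for the pleckstrin homology domain lie downstream.

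**Figure D2:**
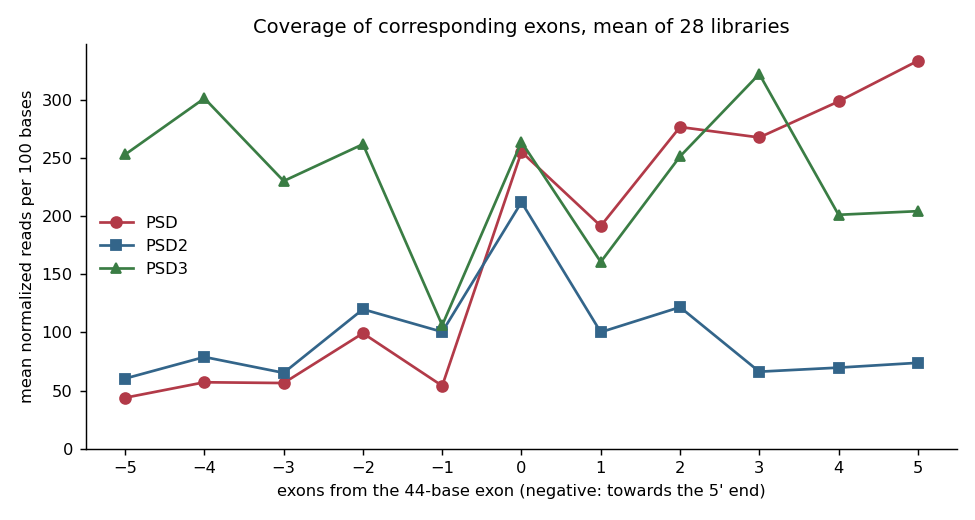
Mean coverage over 28 libraries in normalized reads per 100 bases (vertical axis) of the 44-base exon (0) and the 5 exons on either side of it (horizontal axis) in PSD, PSD2 and PSD3. PSD rises from 54.1 in the exon before to between 192 and 334 in the 5 exons after it, whereas PSD2 stays between 60.4 and 122 in all exons but the 44-base exon (212).

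The 44-base exon of PSD itself (exon 13, chromosome 10, 97961833 to 97961876) was nearly missing from the reads of some animals. Whether this came from annotation, counting or the transcripts was not tested. The share of this exon is given per 1000 normalized reads over all exons of PSD. In 21 libraries the share lay between 30.4 and 40.5, and in the other 7 it lay between 0.60 and 8.12, with none between. Among the LD animals replicates 1 and 8 had 3.88 and 4.87, and the other 8 had 32.2 to 39.1. All 5 BD animals were in the upper range, with 35.6, 37.0, 40.2, 33.4 and 30.4. Among the HD animals replicates 1, 2 and 7 had 8.12, 5.35 and 5.18, and the other 4 had 33.0 to 39.9. Among the VHD animals replicates 1 and 3 had 4.89 and 0.60, and the other 4 had 34.6 to 40.5. The low values occurred in 2 of 10 LD, 0 of 5 BD, 3 of 7 HD and 2 of 6 VHD animals, and in 2 of 8 animals of cohort 4, 3 of 7 of cohort 5, 0 of 8 of cohort 7a and 2 of 5 of cohort 7b. In absolute terms, VHD replicate 3 had 1 normalized read in this exon and VHD replicate 2 had 155. The matched 44-base exon of PSD2 (exon 9) showed a single range, 31.1 to 45.3 per 1000 in the 28 libraries.

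A gap between libraries of this size was rare in the exon table, and 3 further exons of the family had a smaller one. The search took the widest step, on the scale of log2(share + 0.5), between sorted libraries with at least 3 libraries on each side. It covered exons with a mean of at least 20 in genes with at least 10 exons, and it was chosen after the values had been seen. Of 63966 such exons in all genes, 35 (0.0547%) had a step at least as wide as the 1.84 of PSD exon 13. The 67-base exon 3 of GBF1 (chromosome 10, 97815195 to 97815261) had a share of 4.78 to 6.58 in LD replicate 9, BD replicate 1 and HD replicate 4, and of 16.2 to 29.3 in the other 25 (step 1.24, matched by 0.202% of exons). The 124-base exon 3 of ARFGEF2 (chromosome 15, 15502143 to 15502266) had 4.57 to 8.77 in 18 libraries and 15.01 to 23.1 in 10 (step 0.74, 0.797%). The 10 were 2 LD, 3 BD, 3 HD and 2 VHD animals. The 44-base exon 7 of PSD3 (chromosome 8, 18320027 to 18320070) had 7.79 to 15.1 in 14 libraries and 25.3 to 32.2 in the other 14 (step 0.72, 0.872%), the latter being 6 LD, 3 BD, 2 HD and 3 VHD animals. No category was confined to 1 range in ARFGEF2 exon 3 or PSD3 exon 7. The reason for the separated ranges was not tested in these exons either.

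**Figure D3:**
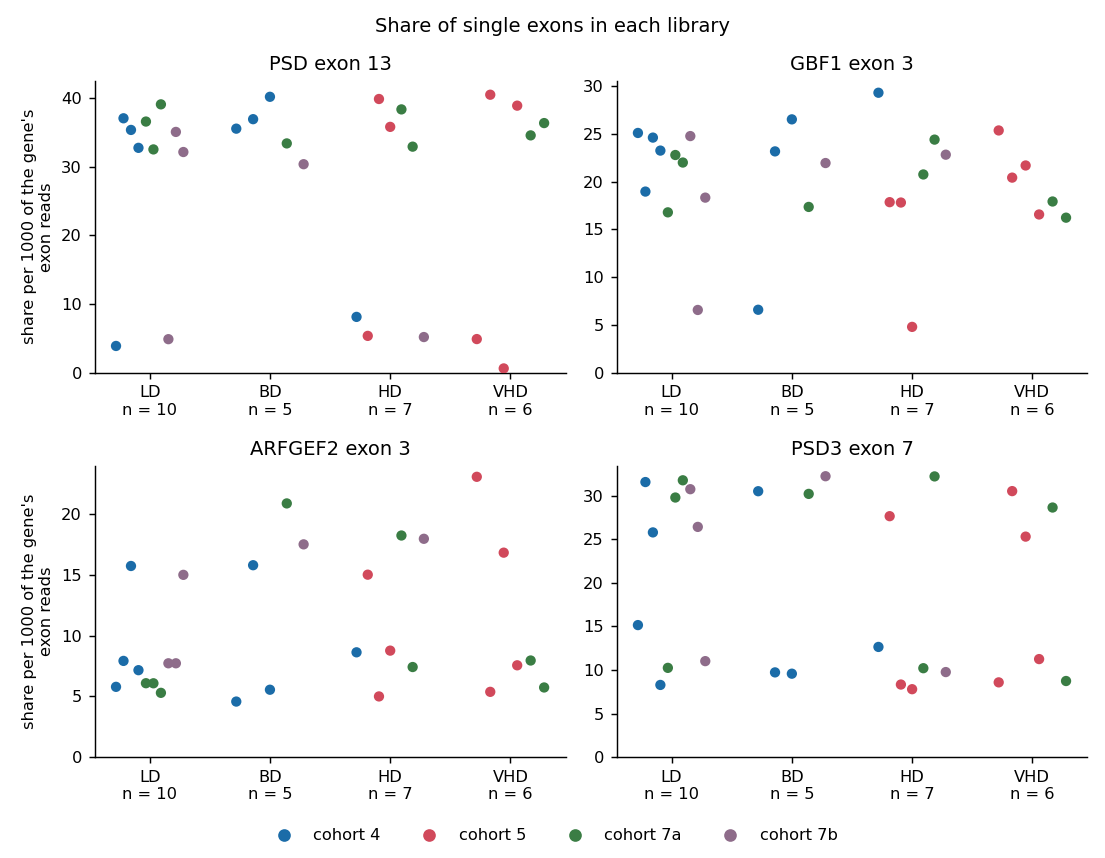
Share of a single exon per 1000 normalized reads over its gene's exons (vertical axis) in each library, by drinking category and coloured by cohort, for PSD exon 13, GBF1 exon 3, ARFGEF2 exon 3 and PSD3 exon 7. In PSD exon 13 the 7 low libraries (0.60 to 8.12) are apart from the 21 others (30.4 to 40.5).

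PSD2, one of the 2 genes whose category values led to the choice of the family, had its highest levels in VHD animals. Its lowest, median and highest values were 1929, 2270 and 2603 normalized reads in LD, 1927, 2355 and 2722 in HD and 2543, 2718 and 3451 in VHD animals, and the 5 BD animals had 2229, 2080, 2392, 2419 and 2317. All 6 VHD animals were above the LD mean, 4 of them above every LD animal, and the 2 ranges overlapped through the LD animal at 2603. With cohort as a term, the fitted difference was 0.41 ± 0.091 (SE, log2), a fold of 1.33. In cohort 7a, the only one with both categories, the difference was 0.31 (2 VHD against 3 LD animals), and in cohort 5 VHD minus HD was 0.37 (4 against 3). All 15 exons of PSD2 were fitted higher in VHD than in LD animals, by 0.27 to 0.65. The exons hold the same reads as the gene value, so they are no further evidence of a difference. HD minus LD was 0.12 ± 0.075, with 0.058 when cohort was no term and 0.075 without HD replicate 1.

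Markers of some cell types were also fitted higher in VHD animals and those of others lower, and their part in the PSD2 difference was not tested. Against LD animals, 10 of 10 oligodendrocyte, 8 of 10 astrocyte and 3 of 3 cholinergic neuron markers were fitted higher in VHD animals, where 52.5% of all 13022 genes tested were. So were 4 of 4 endothelial and pericyte and 4 of 4 glutamatergic markers. Of the CeA identity markers 1 of 7 was higher (median -0.72), and of the GABAergic 2 of 7 (-0.81). The striatal list had 0 of 5 (-0.32), microglia 1 of 5, neurons 5 of 10, choroid plexus 2 of 4 and oligodendrocyte precursors 1 of 2. The summed oligodendrocyte markers ranged from 42145 to 91551 normalized reads in LD and from 64072.5 to 122958 in VHD animals. The summed cholinergic markers (CHAT, SLC5A7, SLC18A3) ranged from 121 to 6226 in LD and from 108 to 14178 in VHD animals, CHAT was listed at 0 in 2 libraries and SLC18A3 in 1. With astrocyte, oligodendrocyte and neuron scores as terms the PSD2 difference was 0.30, and with cholinergic and striatal scores, added after seeing the data, it was 0.38. Over the 28 libraries PSD2 correlated with the astrocyte score with r = 0.55 (Spearman's rho 0.49, and r = 0.39 without the 2 extreme libraries), and with the oligodendrocyte score with r = 0.50 (rho 0.50). After removing category and cohort means, r was 0.55 for the astrocyte score and 0.26 for the oligodendrocyte score. These points share cohorts, dissection and a common scaling, so the correlations are descriptions.

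PSD went the other way from PSD2 in VHD animals, with a wide spread. The lowest, median and highest values were 3350, 3903 and 5750 normalized reads in LD, 2466, 4716 and 5129 in HD and 1660, 3067 and 4451 in VHD animals, and the 5 BD animals had 4049, 4680, 3827, 3470 and 4243. VHD replicates 3, 4 and 5, with 1660, 2259 and 2310, were below every LD animal, and the other 3 VHD animals were within the LD range. The fitted VHD minus LD difference was -0.50 ± 0.24 (SE, log2). These 3 animals had cholinergic scores of 4.64, 4.57 and 4.24 and oligodendrocyte scores of 0.90, 0.60 and 0.50, in log2 units around the mean of all libraries. Of the other 3, VHD replicate 1, with 4094 normalized reads of PSD, had 0.88 and -0.022, replicate 2, with 3824, had 2.35 and -0.030, and replicate 6, with 4451, had -3.51 and 0.32. HD replicate 1, also low in PSD with 2466 normalized reads, had a cholinergic score of -1.02 and an oligodendrocyte score of 0.26. The part of these cell types in the PSD difference was not tested. With astrocyte, oligodendrocyte and neuron scores as terms the PSD difference was -0.070, and with cholinergic and striatal scores -0.23. Without HD replicate 1 it was -0.32, and without VHD replicate 6 it was -0.75. For PSD, HD minus LD was 0.095 ± 0.20. It was 0.35 without HD replicate 1, and it turned to -0.031 with astrocyte, oligodendrocyte and neuron scores and to -0.14 with cholinergic and striatal scores.

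**Figure D4:**
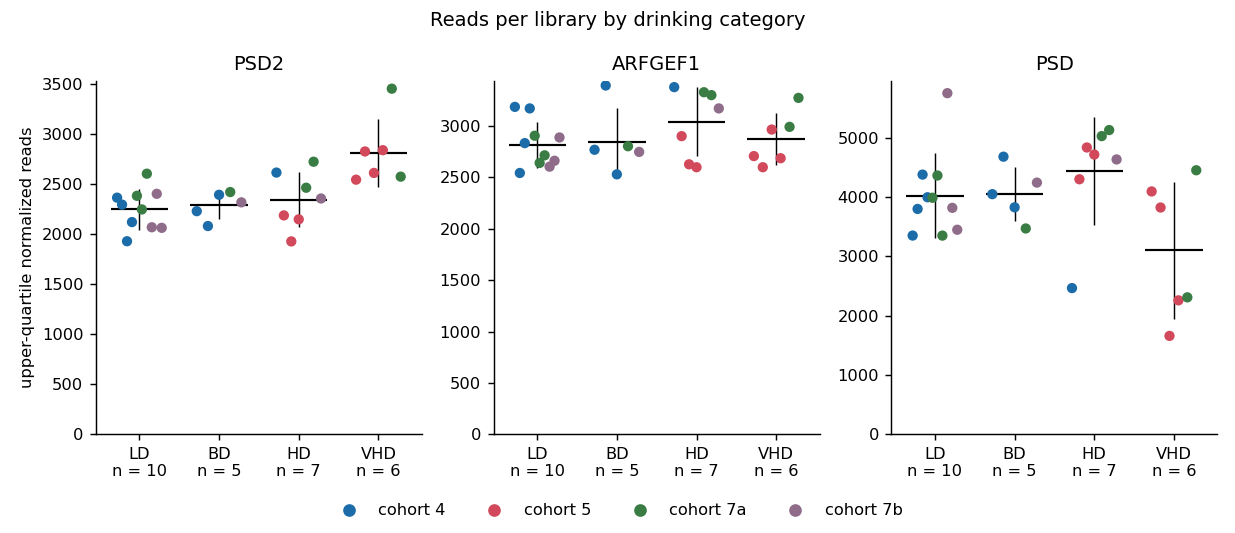
Normalized reads (vertical axis) of PSD2, ARFGEF1 and PSD in each library by drinking category, coloured by cohort, with the mean as a line and the SD as a bar. The 6 VHD animals have 2543 to 3451 for PSD2, and 3 of them have 1660 to 2310 for PSD, below all LD animals.

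PSD3 was lower than the LD mean in 6 of 6 VHD animals, without leaving the LD range. Its values were 4846, 6015 and 7222 (lowest, median, highest) in LD, 5534, 6366 and 6805 in HD and 4958, 5093 and 5715 in VHD animals, and 4933 to 6814 in BD animals. The fitted VHD minus LD difference was -0.18 ± 0.11 and changed sign to 0.019 with astrocyte, oligodendrocyte and neuron scores as terms. The 3 EFA6 genes were related across libraries. PSD and PSD2 had r = -0.57 over 28 libraries (rho -0.49, and -0.56 without the 2 extreme libraries), with -0.86, -0.64 and -0.67 within cohorts 4, 5 and 7a. PSD and PSD3 had r = 0.56 (rho 0.59, and 0.48 without those 2), with -0.24, 0.83 and 0.77 within the same cohorts, and so not the same sign in cohort 4.

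The category ranges of the 3 cytohesins overlapped. CYTH1, which acts in integrin-linked adhesion, had 867 to 1058 normalized reads in LD, 818 to 1145 in BD, 757 to 1052 in HD and 829.3 to 1065 in VHD animals. Its fitted differences from LD were 0.0050 ± 0.10 in VHD and -0.084 ± 0.085 in HD animals. The HD difference was -0.31 in cohort 7a alone, -0.015 without HD replicate 6 and 0.0032 with cholinergic and striatal scores as terms. CYTH2, also known as ARNO, had 590 to 829.5 in LD, 682 to 782 in BD, 648 to 796 in HD and 607 to 832 in VHD animals, with differences of -0.11 ± 0.10 in VHD and -0.029 ± 0.083 in HD. The VHD difference of CYTH2 was -0.21 without VHD replicate 6 and -0.020 without VHD replicate 5. CYTH3, also known as GRP1, had 627 to 951 in LD, 537 to 767 in BD, 608 to 929 in HD and 520 to 741 in VHD animals, and 3 of 6 VHD animals were below every LD animal. The VHD minus LD difference of CYTH3 was -0.21 ± 0.14.

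ARFGEF1, the other gene that led to the choice of the family, had its highest median in HD animals. Its lowest, median and highest values were 2540, 2771 and 3183 normalized reads in LD, 2596, 3167 and 3374 in HD and 2596, 2833 and 3270 in VHD animals, and the 5 BD animals had 2766, 3390, 2527, 2800 and 2745. Of the 7 HD animals 5 were above the LD mean and 3 above every LD animal, and the ranges overlapped. With cohort as a term, HD minus LD was 0.22 ± 0.068 (SE, log2), a fold of 1.17. The difference was 0.21 in cohort 4 (1 HD against 4 LD animals), 0.27 in cohort 7a (2 against 3) and 0.22 in cohort 7b (1 against 3). Without the cohort term it was 0.11. The 3 HD animals of cohort 5, which has no LD animal, had 2898, 2624 and 2596. All 39 exons of ARFGEF1 were fitted higher in HD than in LD animals, by 0.010 to 0.42. As for PSD2, they hold the same reads as the gene value and are no further evidence. In VHD animals the fitted difference was 0.21 ± 0.083 with the cohort term and 0.028 without it, and 3 of 6 VHD animals were above the LD mean.

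ARFGEF1 was lower in libraries with higher markers of inhibitory neurons, and most other marker lists went the same way. ARFGEF1 correlated with the GABAergic neuron score with r = -0.70 over 28 libraries (rho -0.69, and -0.69 without the 2 extreme libraries), and with -0.57, -0.86 and -0.94 within cohorts 4, 5 and 7a. Over the 28 libraries r was also -0.57 for choroid plexus, -0.56 for CeA identity, -0.55 for microglia and -0.48 for astrocytes and striatal neurons. The r was 0.45 for glutamatergic neurons, 0.44 for neurons, 0.052 for oligodendrocytes and -0.36 to -0.21 for the remaining lists. The CeA identity score had -0.33, -0.48 and -0.97 within cohorts 4, 5 and 7a. The summed GABAergic markers ranged from 10789 to 24301 normalized reads in LD and from 7360 to 20916 in HD animals, with medians of 18304 and 18552, so the median sum was not lower in HD animals. With cohort as a term, 0 of 7 markers were fitted higher in HD animals, where 47.9% of all genes were. None of these 7 was at 0 in any library. HD replicates 5 and 6, the HD animals of cohort 7a, had GABAergic scores of -1.30 and -0.78 and CeA identity scores of -1.09 and -0.92. The other HD animals had GABAergic scores of -0.078 to 0.58 and CeA identity scores of 0.14 to 0.67. The GABAergic and CeA identity scores were not used as terms, and their part in the ARFGEF1 difference was not tested. With astrocyte, oligodendrocyte and neuron scores as terms the HD minus LD difference was 0.20, and with cholinergic and striatal scores it was 0.20.

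ARFGEF2, whose loss in humans disturbs neuronal migration, followed ARFGEF1 closely. The 2 had r = 0.77 over 28 libraries (rho 0.74, and 0.71 without the 2 extreme libraries), with 0.86, 0.81 and 0.59 within cohorts 4, 5 and 7a. ARFGEF2 had 3366, 3703 and 3906 normalized reads (lowest, median, highest) in LD, 3305, 3728 and 4384 in HD and 3535, 3655 and 3860 in VHD animals, and 3243 to 3988 in BD animals. The HD animals at 4289, 4384 and 4045 were above every LD animal, and 1 HD animal was below every LD animal. HD minus LD was 0.12 ± 0.061, with 0.22 in cohort 7a alone and 0.070 with no cohort term. VHD minus LD was 0.081 ± 0.073 and turned to -0.0015 with no cohort term. GBF1 had 1829, 2926 and 3349 in LD, 2926, 3179 and 3472 in HD and 2490, 2721 and 2957 in VHD animals, and 2437 to 3276 in BD animals. All 7 HD animals were above the LD mean of GBF1, the ranges overlapped, and HD minus LD was 0.21 ± 0.10. GBF1 and ARFGEF1 had r = 0.024 over the 28 libraries.

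**Figure D5:**
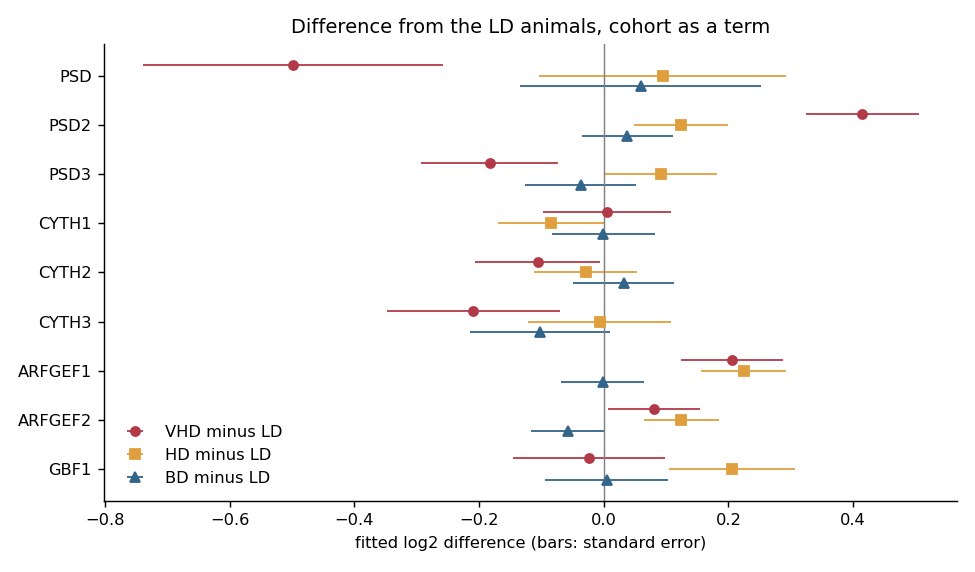
Fitted log2 difference from LD animals (horizontal axis) for each gene in VHD, HD and BD animals with cohort as a term, with bars for the standard error. PSD2 (0.41) and PSD (-0.50) lie farthest from 0 in VHD, and the BD differences lie between -0.10 and 0.060.

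Against these 2 contrasts stands the background of all genes. limma with Benjamini-Hochberg adjustment called 0 of 13022 genes (0%) between VHD and LD and 0 (0%) between HD and LD animals, with 1116 genes (8.57%) and 516 genes (3.96%) below an unadjusted p of 0.05. edgeR called 0 genes in both (1220 and 532 unadjusted) and DESeq2 called 4 and 1. The median absolute log2 difference was 0.15 over all genes in VHD and 0.18 over the 9 exchange factors, and 0.099 and 0.095 in HD. In VHD 4 of the 9 were fitted higher than in LD (52.5% of all genes) and in HD 6 of 9 (47.9%). Nothing is read from these counts, since the members were chosen on the same contrasts.

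The binge drinkers were not used to choose the genes, and none of the 9 differed in them by the test. limma with Benjamini-Hochberg adjustment called 0 of 9 members between BD and LD animals, as it called 0 of 13022 genes (0%). At an unadjusted p under 0.05 it had 458 genes (3.52%), none of them a member, and edgeR and DESeq2 called 0 as well (315 and 331 unadjusted). BD shares its LD animals with the 2 contrasts above. The fold of BD over LD was 1.03 for PSD2 (95% interval 0.925 to 1.14) and 0.999 for ARFGEF1 (0.908 to 1.10), with an adjusted p of 0.9999 in limma for all 9. The interval was widest for PSD, at 1.04 (0.791 to 1.37). Of the members 4 of 9 were fitted higher in BD, where 46% of all genes were. So were 10 of 10 oligodendrocyte, 6 of 10 astrocyte, 6 of 10 neuron, 3 of 4 glutamatergic and 2 of 4 choroid plexus markers. Fewer were higher in the GABAergic (2 of 7), CeA identity (2 of 7), microglia (1 of 5) and endothelial and pericyte (1 of 4) lists. The cholinergic (0 of 3), striatal (0 of 5) and oligodendrocyte precursor (0 of 2) lists had none.

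Between cohorts no member passed the test, and ARFGEF1 and PSD2 had the smallest p. The cohort contrasts were not used for the choice, but cohort 5 held only HD and VHD animals. Its fitted level therefore depends on the category differences on which the choice was made, so the cohort test is not free of that choice. With category as a term, the limma F test over cohorts called 0 of 9 members and 0 of 13022 genes (0%), edgeR called 0 genes (1340 unadjusted) and DESeq2 19 (1660 unadjusted), none of them a member. Below an unadjusted p of 0.05 lay 1225 genes (9.41%), of which 2 were members. ARFGEF1 had F = 4.90 with an adjusted p of 0.403 in limma and PSD2 F = 3.66 with 0.476. With no category term, 0 members were below an unadjusted p of 0.05 in limma, where 1277 of 13022 genes were. The adjusted p was then 0.651 for ARFGEF1 and 0.537 for PSD2. The fitted ARFGEF1 level of cohort 5 minus cohort 4 was -0.31 ± 0.086 (SE, log2), and its mean was 2724 in cohort 5, 2972 in cohort 4, 2991 in cohort 7a and 2812 in cohort 7b. For PSD2 the fitted differences from cohort 4 were -0.15 ± 0.094 in cohort 5, 0.095 ± 0.072 in cohort 7a and -0.0077 ± 0.076 in cohort 7b. The mean of PSD2 before fitting was higher in cohort 5 (2439) than in cohort 4 (2253). Cohort and age cannot be told apart, since the labels give ages per cohort and not per animal.

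Relative use of exons was tested apart from the level of the gene, and again no member passed. The F test of diffSplice in limma called 0 of 9 members between BD and LD animals, against 56 of 9817 genes (0.57%), and 0 of 9 in any of 3 differences between cohorts, against 30 (0.306%). At an unadjusted p under 0.05, 785 genes (8%) and 606 genes (6.17%) passed, of which 2 and 0 were members. ARFGEF1 had an unadjusted p of 0.00397 and an adjusted p of 0.192 between BD and LD in this F test, and ARFGEF2 had 0.0230 and 0.440. The ARFGEF1 result turned on single libraries. It passed with an adjusted p of 0.0181 without BD replicate 3 and of 0.0352 without BD replicate 4, and it had 1 without the 3 libraries with fewest reads. ARFGEF2 passed with 0.00720 without BD replicate 3. Calls over all genes rose in the same fits, from 56 to 335 of 9804 without BD replicate 3 and to 200 of 9804 without BD replicate 4. With the Simes test in limma, which rests on the single most different exon, ARFGEF1 passed with an adjusted p of 0.00922 and GBF1 with 0.0105, where 401 of 9817 genes passed.

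The exons behind these values were looked up afterwards. In ARFGEF1 it was exon 17 (85 bases, chromosome 8, 65244248 to 65244332), with 72, 75, 33, 37 and 83 normalized reads in the 5 BD animals and 27 to 45 in the 10 LD animals. The 72 of BD replicate 1 stand for 8.98 reads. Of the BD animals 3 were above every LD animal and 2 were within the LD range. HD replicate 3 and VHD replicate 6 had 81 and 90, and the other HD and VHD animals had 26 to 55. In GBF1 it was exon 38 (181 bases, chromosome 10, 97935173 to 97935353), where BD replicate 1, the library with fewest reads, had 0 and the other 4 BD animals had 71, 68, 79 and 85. The LD animals had 43 to 86 there. In that library 3 reads are worth 24.1 normalized reads, so a count of 0 allows up to that level, with counting error only. In ARFGEF2 it was exon 3, one of the exons with 2 ranges of values above, in which 3 of 5 BD and 2 of 10 LD animals were in the upper range.

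The rest of the ARF pathway was counted from lists of genes. Of 7 ARF GTPases, all in the table, 0 were called between BD and LD animals and 0 between cohorts by limma, and 0 of 7 were fitted higher in VHD than in LD animals, where the median difference was -0.19 against 0.013 over all genes. ARF1, which serves the Golgi, had 2457 normalized reads per kb, ARF3 2528 and ARF6, the substrate of the EFA6 group, 170. The fitted VHD minus LD difference was -0.28 for ARF3, ARF1 -0.17 and ARF6 -0.023 (log2). Of 7 other ARF exchange factors 6 were in the table, and 4 were fitted higher in VHD animals (median 0.13). Of 20 ARF GTPase-activating proteins, which switch ARF off, 17 were in the table and 7 were higher in VHD animals (median -0.049). Of 39 effectors and coat subunits 35 were in the table and 15 were higher (median -0.0095), and of 10 cytohesin partners 7 were in the table and 3 were higher (median -0.065). None of these 72 genes passed the limma test between BD and LD animals or between cohorts. At an unadjusted p under 0.05, 0 of the 72 passed between BD and LD, where 3.52% of all genes did, and 7 between cohorts, where 9.41% did. The 7 are near the share of all genes.

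In HD animals the same lists gave 1 of 7 ARF GTPases fitted higher than in LD (median -0.069), 1 of 6 other exchange factors (-0.058) and 8 of 17 GTPase-activating proteins (-0.0019), beside 47.9% of all genes. The effectors and coats had 15 of 35 (median -0.0021) and the cytohesin partners 5 of 7 (0.034). The lists share libraries and were made with earlier results of these data known, so the counts describe and do not test.

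Among 11240 genes with a mean of at least 50 normalized reads, the levels most like PSD2 over the 28 libraries were those of RAB5B, with r = 0.79 (rho 0.87), ANK1 (0.77), TTBK2 (0.75), SLC29A2 (0.74) and HEPH (0.74). RAB5B encodes a small GTPase of early endosomes and ANK1 an ankyrin of the membrane skeleton. The r of RAB5B was 0.80 without the 2 libraries extreme in PSD2, 0.60 after removing category and cohort means, and 0.60, 0.86 and 0.88 within cohorts 4, 5 and 7a. The most opposite were ST3GAL5, the enzyme that makes the ganglioside GM3, with r = -0.78, ME3 (-0.76) and ABRACL (-0.75). For ARFGEF1 they were NFE2L3 (0.85), UNC13B (0.84), RASAL2 (0.81), STRBP (0.80) and MAMDC2 (0.80). UNC13B, a protein that primes synaptic vesicles, had r = 0.80 after removing category and cohort means, and 0.89, 0.76 and 0.90 within cohorts 4, 5 and 7a. The most opposite were CTPS1, a CTP synthase, with r = -0.80, DCAF12L2 (-0.79) and NDN (-0.78). The genes were picked as extremes of many, and the libraries share cohorts and scaling, so these values describe the 28 animals.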

How the data were processed

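RNA from 28 libraries was sequenced, and 1 gene table and 1 exon table were used. The submitters' processing notes name CASAVA, FastQC, STAR 2.3.0e and edgeR. The build, the annotation and the strand setting were not given in the sources used here, so reads of antisense transcripts cannot be told apart. In the gene table the deposited values are a signal, reads multiplied by 1 factor per library, and 100% came within 0.02 reads of whole numbers. The deposited exon values are a score, the same quantity rounded to whole numbers by the authors. Each table has 30 columns, and 2 were not used here.

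Gene values were tested as log2(value + 1) with limma 3.58.1 (R 4.3.3, statmod 1.5.0), with category and cohort as terms. All 28 libraries entered the fit, with 13022 genes of at least 10 in at least 5 libraries, and p-values were adjusted by Benjamini-Hochberg over all of them at 0.05. Exon use was tested with diffSplice. edgeR 4.0.16 and DESeq2 1.42.0 on the recovered reads, TMM scaling, other pseudocounts, filters, covariates, terms and left-out libraries were alternatives. The scripts were tested on simulated data. Correlations are on the log2 scale, and marker scores are mean log2 values around the mean of all libraries.

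The members and lists were chosen with earlier results of these data known, so VHD and HD against LD are described and not tested. All members were named, with their most and least covered exons, ARF1, ARF3, ARF6, any list gene past a test, and the 5 most and 3 least alike genes of PSD2 and ARFGEF1. The search for gaps in exon shares was chosen after seeing the data. Libraries are separate animals, so p-values measure the spread between animals. Intervals and floors cover counting error or the fitted spread only.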

Additional observations from a re-analysis of the deposited data

Results flagged for a closer look

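In 3 of 36 groups of libraries a single value stood apart by Dixon's criterion, which chance meets in about 1 in 20 groups. PSD in LD animals had 5750 normalized reads in replicate 8, of cohort 7b, where the other 9 had 3350 to 4378. PSD in HD animals had 2466 in replicate 1, of cohort 4 and one of the 3 libraries with fewest reads, where the other 6 had 4300 to 5129. PSD2 in VHD animals had 3451 in replicate 5, of cohort 7a, where the other 5 had 2543 to 2837, and without it the fitted VHD minus LD difference of PSD2 was 0.36.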

How the results depend on the processing

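No member passed the gene-level test between BD and LD animals or between cohorts under any alternative that gave a value. The BD minus LD differences, all near 0, changed sign in 7 members. ARFGEF1 (-0.0016) had 0.0041 with TMM scaling, 0.00955 with edgeR, 0.013 with DESeq2, 0.033 without the 3 libraries with fewest reads, 0.014 with no cohort term and 0.027 in cohort 7a alone. CYTH1 (-0.00073) had 0.0049, 0.016, 0.025 and 0.053 under the first 4 of these, 2.7e-05 in cohort 7a alone and 0.027 with cholinergic and striatal scores. GBF1 (0.0045) had -0.00687 with edgeR, -0.00525 with DESeq2, -0.030 with no cohort term and -0.0053 in cohort 7a alone. Without the 3 libraries with fewest reads PSD (0.060) had -0.015 and CYTH2 (0.032) -0.000907. In cohort 7a alone PSD had -0.16, CYTH2 -0.070 and ARFGEF2 (-0.057) 0.031. PSD3 (-0.037) had 0.045 with astrocyte, oligodendrocyte and neuron scores. With each library left out in turn the range was -0.0097 to 0.17 for PSD, -0.095 to 0.025 for PSD3, -0.056 to 0.045 for ARFGEF1, -0.072 to 0.055 for GBF1, -0.079 to 0.038 for CYTH1 and -0.0043 to 0.065 for CYTH2. ARFGEF1 HD minus LD was 0.11 with no cohort term. The cause was not tested.

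Exon use of BD against LD called 2 members with the Simes test and 0 to 2 when 1 library was left out (2 without BD replicate 3, 1 without BD replicate 4). Calls over all genes were 335 and 200 in those 2 fits, 369 without BD replicate 2, 215 without BD replicate 5, and 16 without BD replicate 1, against 56. Genes called overall fell from 56 to 20 without the 3 libraries with fewest reads, 11 with a pseudocount of 8 and 5 with a mean of at least 50, and rose to 401 with the Simes test. In any cohort difference 30 became 51, 15, 6 and 290. In cohort 7a alone the calls between BD and LD gave no value, since it holds 1 BD animal. No paired analysis was possible, since each animal gave 1 library, and the replicate numbers carry no pairing. At 1910514 reads, BD replicate 1 has few reads per exon, which limits exon shares there.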

Other observations

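The 4 exons with separated ranges of share give 6 pairs, described here by counts of libraries with no test. For PSD exon 13 and PSD3 exon 7, both were in the upper range in 11 libraries, PSD alone in 10, PSD3 alone in 3 and neither in 4. For PSD exon 13 and ARFGEF2 exon 3 these counts were 6, 15, 4 and 3, and for PSD exon 13 and GBF1 exon 3 they were 18, 3, 7 and 0. For GBF1 exon 3 and ARFGEF2 exon 3 they were 10, 15, 0 and 3, so the 3 libraries low in GBF1 exon 3 were also low in ARFGEF2 exon 3, as were 15 others. GBF1 exon 3 and PSD3 exon 7 had 12, 13, 2 and 1, and ARFGEF2 exon 3 and PSD3 exon 7 had 5, 5, 9 and 9. In the library with fewest reads, BD replicate 1, the low share of GBF1 exon 3 rests on 2.00 reads. The next widest steps in the family were those of ARFGEF1 exon 7 (0.47, matched by 2.18% of exons searched) and PSD3 exon 8 (0.44, 2.51%).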
